A study of Mus musculus with 8 samples.

Results

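The genes described here are 30 listed enzymes of eicosanoid synthesis and receptors for their products, chosen by name and not by their values, of which 28 had a probe set assigned to a single gene symbol in the platform annotation. Ptgs1 and Ptger1 had none in that annotation and were not analysed here. The 28 genes are part of 22180 genes named on the array. All 28 passed a filter on brightness, which dropped the 33.3% of genes with the lowest average signal and left 14787 tested genes. Pla2g5 passed only through its values in treated mice, as described below. They comprise 3 phospholipases, 9 genes of prostanoid synthesis and breakdown, 6 genes of the lipoxygenase branch, 3 of the epoxygenase branch and 7 receptors.

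Eicosanoids are short-lived lipid signals made from arachidonic acid, an n-6 fatty acid held in membrane phospholipids. Phospholipases release the fatty acid, cyclooxygenases turn it into prostaglandins, prostacyclin and thromboxane, lipoxygenases into leukotrienes and hydroxy fatty acids, and epoxygenases into epoxides that soluble epoxide hydrolase opens. The products act on receptors at the surface of nearby cells. In white fat, adipocytes, macrophages, mast cells and vessel walls contribute different steps, prostaglandin E2 restrains lipolysis through the receptor encoded by Ptger3, and glucocorticoids are known to dampen the release of arachidonic acid and the induction of Ptgs2.

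RNA came from the epididymal fat of 8 male C57BL/6 mice, with 1 array for each mouse. In the prednisolone group (GC+), 4 mice took the synthetic glucocorticoid prednisolone every day in sweet potato puree from 6 weeks of age for 4 weeks, at a dose that the labels write as 40 mg/kg/m2. In the vehicle group (GC-), 4 mice took the puree without the drug. Both groups ate the high-fat, n-6 rich diet (45% of energy from fat) from 3 to 10 weeks of age, so no comparison with another diet is possible. The values are log2 expression values after robust multiarray averaging (RMA), and a difference of 1 is a doubling. Differences are prednisolone minus vehicle with the standard error of the limma fit (n = 4 per group). Levels of different genes are not compared, because each probe set has its own response.

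The defining transcripts of adipocytes were bright on every array, with Adipoq (adiponectin) between 12.04 and 12.29 in prednisolone mice and between 11.74 and 12.16 in vehicle mice. Transcripts of the epididymis, the sperm duct beside this depot, were also bright on some arrays. An epididymis score was taken as the average deviation of 11 markers from their 8-array means. It was 3.60 in prednisolone mouse 2 and 0.49, -2.61 and -2.31 in prednisolone mice 1, 3 and 4. Among vehicle mice, numbers 1 and 4 scored 3.12 and 1.84, and numbers 2 and 3 scored -2.71 and -1.42. The 3 arrays with a score above 1 are prednisolone mouse 2 and vehicle mice 1 and 4, and differences are also given for the other 5 mice, 3 with prednisolone and 2 with vehicle, where leaving the 3 out moves them. The 5 are not free of epididymis transcripts: Gpx5, an epididymal peroxidase, read 11.27, 13.81, 4.57 and 4.76 in prednisolone mice, against 13.78, 4.19, 8.69 and 13.60 in vehicle mice, so prednisolone mouse 1 and vehicle mouse 3 hold some. That choice of arrays was made after seeing the data. Of the 15 epididymis markers listed, 11 were tested, and 5 averaged higher and 6 lower with prednisolone. Over the 5 mice all 11 were higher (median 0.59), against 53.6% of all tested genes. The 8 tested testis markers were likewise all higher there (median 0.33). The 5-mouse comparison is thus unbalanced in these transcripts too.

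None of the 28 genes passed the test of a difference between the groups. The count with an adjusted p under 0.05 (limma, Benjamini-Hochberg over all 14787 genes) was 0, against 0% of all tested genes, and the adjusted p of the 28 genes lay between 0.768 and 0.997. At an unadjusted p under 0.05 the count was 0 in each direction, against 3.37% of all tested genes higher and 2.33% lower. The groups overlapped in all 28 genes, while 1.81% of tested genes were higher and 1.39% lower in every prednisolone mouse. The mean was higher with prednisolone for 23 genes and lower for 5, with a median difference of 0.15, against 54.6% higher, 45.4% lower and a median of 0.02 among all tested genes. The standard errors lay between 0.08 and 1.36 and exceeded the difference itself in 16 of the 28 genes. Over the 5 mice with a score below 1 16 genes were higher and 12 lower, with a median of 0.02, against 53.6% higher and 46.4% lower among all tested genes.

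**Figure D1:**
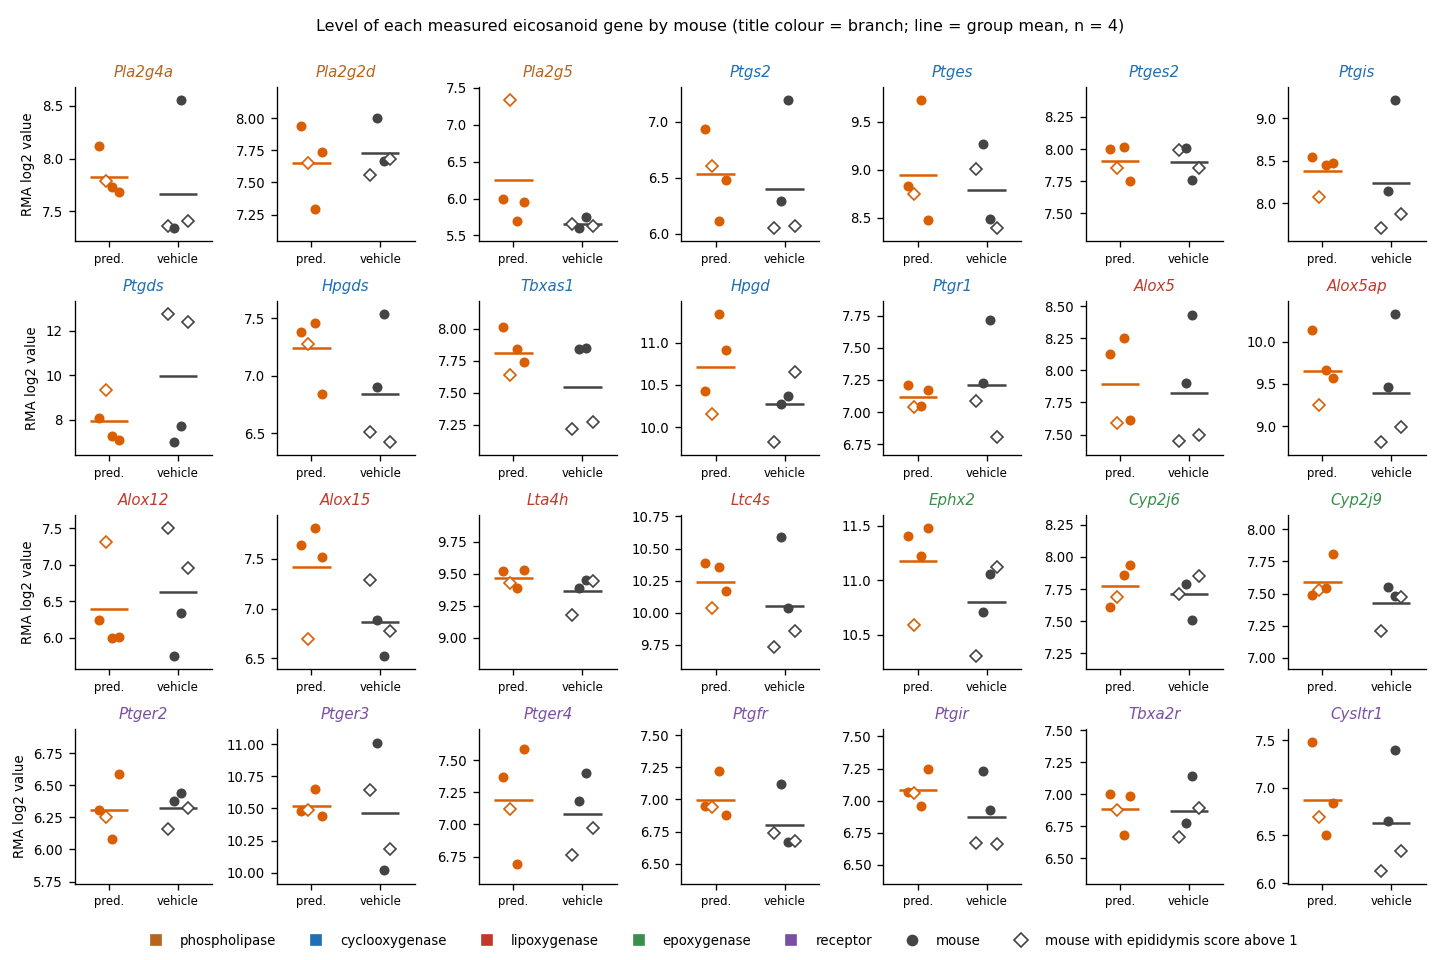
RMA log2 value of each of the 28 genes (y axis, own scale in each panel) in prednisolone mice (left, orange) and vehicle mice (right, grey), with the group mean as a line and n = 4 per group. Open diamonds mark the 3 mice with an epididymis score above 1, and the groups overlap in every panel.

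**Figure D2:**
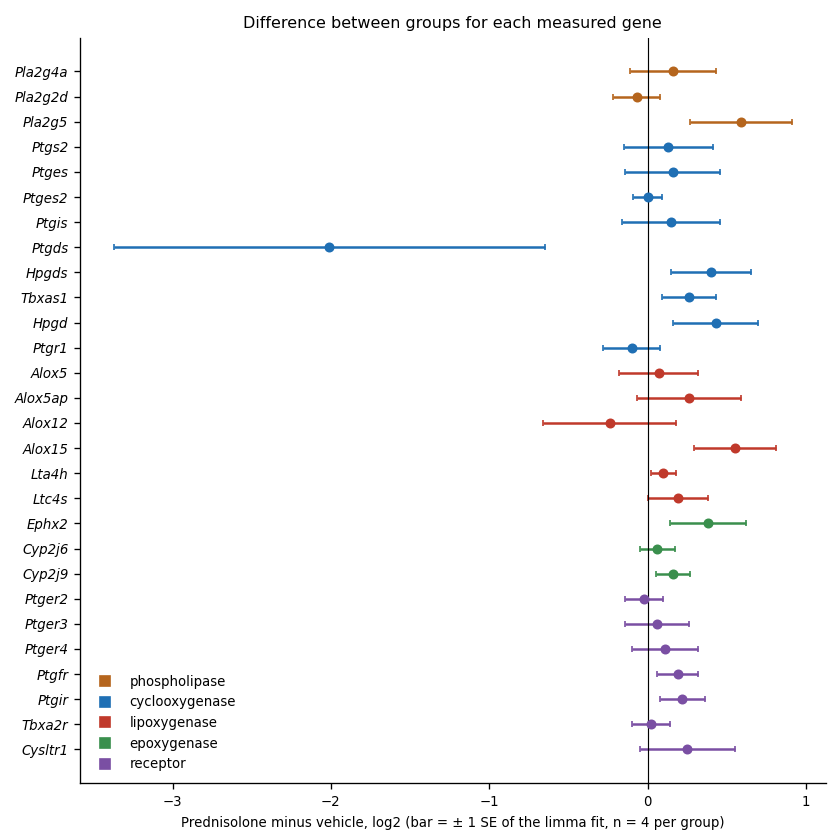
Prednisolone minus vehicle difference of each gene on the log2 scale (x axis), with ± 1 standard error of the limma fit as a bar and the branch as colour. The bars of 16 genes reach across 0, and Ptgds has by far the widest bar (-2.01 ± 1.36).

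Prednisolone acts through the glucocorticoid receptor, so the promoters of the listed genes were searched for its core motif, AGAACA on either strand (TGTTCT on the other), and for the palindrome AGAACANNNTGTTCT, which contains the core motif on both strands. RefSeq promoter windows of build GRCm38.p6, from 250 bases before to 50 after the start site, existed for 24 of the 30 genes (27 windows). The core motif was in 6 of the 27 windows (22.2%), against 19.0% of all 32851 windows, and the palindrome was in 0 of the 27, against 0.00913% of all. Stretches of 60 bases that lie before the start site are shown for each match there in the measured genes, 5′ to 3′ on the strand of the gene, with the core motif in capitals. Ptger2 holds a further match after its start site, which is not shown, and Pla2g4a has another promoter window with no match. A match is only a match of letters.
Pla2g4a (chr1:149922628-149922687, minus strand): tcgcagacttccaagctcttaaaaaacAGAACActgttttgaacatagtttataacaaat
Ptges (chr2:30903456-30903515, minus strand): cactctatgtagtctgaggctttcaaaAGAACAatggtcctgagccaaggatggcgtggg
Cyp2j6 (chr4:96553812-96553871, minus strand): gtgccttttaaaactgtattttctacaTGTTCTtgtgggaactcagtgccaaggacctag
Cyp2j6, nearer its start (chr4:96553652-96553711, minus strand): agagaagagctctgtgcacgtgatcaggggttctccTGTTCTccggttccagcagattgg
Alox12 (chr11:70255430-70255489, minus strand): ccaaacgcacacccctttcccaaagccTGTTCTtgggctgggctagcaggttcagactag
Ptger2 (chr14:44988032-44988091, plus strand): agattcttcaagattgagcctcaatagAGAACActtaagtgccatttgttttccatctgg
The differences of these 5 genes lay between -0.24 (Alox12) and 0.16 (Pla2g4a and Ptges), each smaller than its standard error.

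Among the phospholipases, Pla2g4a encodes the cytosolic enzyme that releases arachidonic acid on a calcium signal. It read 8.12, 7.79, 7.73 and 7.68 in prednisolone mice, against 7.36, 7.34, 8.56 and 7.41 in vehicle mice (0.16 ± 0.27, limma adjusted p = 0.893). The 4 prednisolone values lay above 3 of the vehicle values and below vehicle mouse 3. Without that mouse the difference was 0.46 ± 0.12 (limma unadjusted p = 0.00522, adjusted p = 0.579), and without the 3 arrays with a score above 1, which leaves vehicle mouse 3 as 1 of 2 vehicle mice, it was -0.11 ± 0.36. The secreted enzyme Pla2g5 read 5.99, 7.34, 5.69 and 5.96 in prednisolone mice, against 5.65, 5.60, 5.75 and 5.63 in vehicle mice (0.59 ± 0.32, adjusted p = 0.768). Its difference rested largely on prednisolone mouse 2 and was 0.22 ± 0.10 without that mouse and 0.20 ± 0.13 over the 5 mice with a score below 1. The vehicle mean of Pla2g5, 5.66, lay under the filter cut of 5.82, so the gene was tested only through its prednisolone values. Pla2g2d, another secreted phospholipase, ranged from 7.29 to 7.94 with prednisolone and from 7.56 to 8.00 with vehicle (-0.07 ± 0.15).

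In the cyclooxygenase branch, Ptgs2 encodes the inducible cyclooxygenase. It read 6.94, 6.61, 6.11 and 6.48 in prednisolone mice, against 6.05, 6.29, 7.20 and 6.07 in vehicle mice (0.13 ± 0.28, adjusted p = 0.914). Vehicle mouse 3 held the highest value and the other 3 vehicle mice lay at or below 6.29, within or under the prednisolone range. Over the 5 mice with a score below 1 the difference was -0.24 ± 0.34. Ptgis, prostacyclin synthase, read 8.55, 8.07, 8.45 and 8.47 in prednisolone mice, against 7.71, 8.15, 9.22 and 7.87 in vehicle mice (0.15 ± 0.31), again with vehicle mouse 3 on top, and its difference over those 5 mice was -0.19 ± 0.30. Ptges, the inducible prostaglandin E synthase, read 8.83, 8.75, 9.73 and 8.47 in prednisolone mice, against 9.01, 9.27, 8.48 and 8.39 in vehicle mice (0.16 ± 0.30). Its sign rested on prednisolone mouse 3, the highest of all 8, and turned to -0.10 without it. Ptges2, a further prostaglandin E synthase, had a narrow range, from 7.75 to 8.02 in prednisolone mice and from 7.76 to 8.01 in vehicle mice (0.00 ± 0.09).

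The enzymes of prostaglandin D2 and thromboxane synthesis found in leukocytes averaged higher with prednisolone, without passing the test. Hpgds, the prostaglandin D synthase of mast cells and macrophages, read 7.38, 7.28, 7.46 and 6.84 in prednisolone mice, against 6.51, 6.90, 7.54 and 6.42 in vehicle mice (0.40 ± 0.25, adjusted p = 0.768). The low values were those of vehicle mice 1 and 4, both with an epididymis score above 1, and the difference was 0.01 ± 0.26 over the 5 mice with a score below 1. Tbxas1, thromboxane synthase, ranged from 7.64 to 8.01 with prednisolone and from 7.22 to 7.85 with vehicle (0.26 ± 0.17), and its difference over those 5 mice was 0.02 ± 0.12. Ptgds, the other prostaglandin D synthase, is a lipocalin made in the epididymis and other male reproductive tissues. It read 8.07, 9.35, 7.27 and 7.11 in prednisolone mice, against 12.76, 6.99, 7.70 and 12.38 in vehicle mice (-2.01 ± 1.36, adjusted p = 0.769). The 2 bright arrays, vehicle mice 1 and 4, set the group difference, which was 0.14 ± 0.34 over the 5 mice with a score below 1.

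Of the enzymes that break prostaglandins down, Hpgd encodes the dehydrogenase that starts their inactivation. It read 10.43, 10.15, 11.34 and 10.91 in prednisolone mice, against 9.82, 10.27, 10.37 and 10.65 in vehicle mice (0.43 ± 0.27, adjusted p = 0.768). Prednisolone mice 3 and 4 lay above all vehicle mice and prednisolone mouse 2 lay below 3 of them. Over the 5 mice with a score below 1 the difference was 0.57 ± 0.26 (limma unadjusted p = 0.0696), with the groups apart. Ptgr1, a reductase of prostaglandins and leukotriene B4, ranged from 7.04 to 7.21 with prednisolone and from 6.81 to 7.72 with vehicle (-0.10 ± 0.18), and its difference over those 5 mice was -0.33 ± 0.17.

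In the lipoxygenase branch, Alox15 had the lowest unadjusted p of the 28 genes (0.0648). It encodes the lipoxygenase of resident peritoneal macrophages and eosinophils, which makes hydroxy fatty acids from arachidonic and linoleic acid. It read 7.64, 6.70, 7.81 and 7.52 in prednisolone mice, against 7.29, 6.89, 6.52 and 6.78 in vehicle mice (0.55 ± 0.26, or 1.46-fold, limma adjusted p = 0.768). Prednisolone mice 1, 3 and 4 lay above every vehicle mouse, and prednisolone mouse 2 lay below 3 of the vehicle mice. Without prednisolone mouse 2 the difference was 0.79 ± 0.18 (limma unadjusted p = 0.00295, adjusted p = 0.629). Over the 5 mice with a score below 1 it was 0.95 ± 0.16 (unadjusted p = 0.000873, adjusted p = 0.957), so the call over all genes did not change. In that smaller comparison 2 of the 28 genes, Alox15 and Ephx2, had an unadjusted p under 0.05 upward, against 2.04% of tested genes, and 0 downward, against 1.32%. With 3 prednisolone and 2 vehicle mice the groups were apart upward for 3 of the 28 genes (Alox15, Ephx2 and Hpgd), against 10.5% of tested genes, and downward for 1 (Ptgr1), against 8.37%, so the upward share lies near the background.

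**Figure D3:**
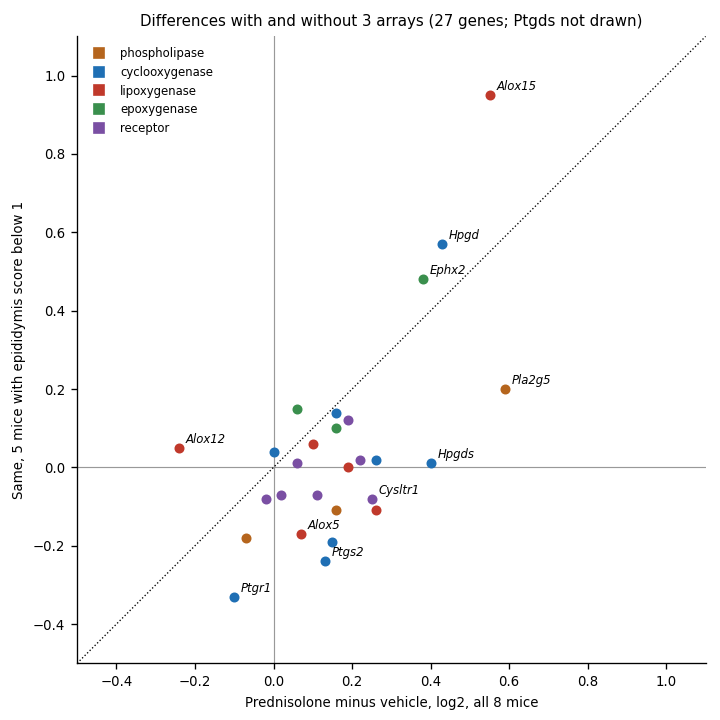
Prednisolone minus vehicle difference on the log2 scale over all 8 mice (x axis) and over the 5 mice with an epididymis score below 1 (y axis, 3 prednisolone and 2 vehicle), with the line of equal values dotted. Alox15, Hpgd and Ephx2 lie above that line at 0.95, 0.57 and 0.48, while Hpgds and Pla2g5 lie well under it; Ptgds, at -2.01 and 0.14, is not drawn.

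Leukotriene synthesis starts with Alox5, the 5-lipoxygenase, and its membrane partner Alox5ap. Alox5ap read 10.14, 9.25, 9.66 and 9.57 in prednisolone mice, against 8.81, 9.46, 10.33 and 8.99 in vehicle mice (0.26 ± 0.33, adjusted p = 0.863). Alox5 read 8.13, 7.59, 8.25 and 7.61 in prednisolone mice, against 7.45, 7.90, 8.43 and 7.50 in vehicle mice (0.07 ± 0.25, adjusted p = 0.947). Both genes were highest in vehicle mouse 3 and lowest in vehicle mouse 1. The second, dimmer probe set of Alox5ap was likewise highest in vehicle mouse 3, at 6.95, while that of Alox5 was highest in prednisolone mouse 3, at 7.44, with 7.35 in vehicle mouse 3. Without vehicle mouse 3 the Alox5ap difference was 0.57 ± 0.23 (limma unadjusted p = 0.0442, adjusted p = 0.579), and over the 5 mice with a score below 1 it was -0.11 ± 0.30, while that of Alox5 was -0.17 ± 0.25. Of the enzymes that follow, Lta4h, which makes leukotriene B4, ranged from 9.39 to 9.53 with prednisolone and from 9.18 to 9.45 with vehicle (0.10 ± 0.08). Ltc4s, which makes leukotriene C4, ranged from 10.04 to 10.39 with prednisolone and from 9.73 to 10.59 with vehicle (0.19 ± 0.19, and -0.00 ± 0.18 over the 5 mice).

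Alox12, the platelet-type lipoxygenase, was brightest on the arrays with an epididymis score above 1. It read 6.24, 7.31, 6.00 and 6.01 in prednisolone mice, against 7.50, 5.74, 6.33 and 6.95 in vehicle mice (-0.24 ± 0.42, adjusted p = 0.896). The 3 values at or above 6.95 came from the 3 arrays with a score above 1, and the difference was 0.05 ± 0.19 over the other 5 mice. Ptgds and Pla2g5 were also bright only on arrays of this kind, but not on the same ones. Ptgds went with Lcn5, an epididymal lipocalin that read 8.51, 10.22, 7.17 and 7.54 in prednisolone mice, against 13.82, 6.53, 7.83 and 13.64 in vehicle mice. Pla2g5 was bright on a single array, prednisolone mouse 2, which was also the brightest for the epididymal lipocalins Lcn8 and Lcn9, at 13.50 and 13.61. Lcn8 read 9.26, 5.76 and 5.95 in the other prednisolone mice, against 9.51, 5.89, 6.91 and 6.64 in vehicle mice. Lcn9 read 9.99, 5.45 and 5.59, against 10.12, 5.76, 7.31 and 5.81. Both were thus also high in prednisolone mouse 1 and vehicle mouse 1, where Pla2g5 read 5.99 and 5.65. These lipocalins were picked from 11 tested markers that differ between arrays. Adam7 was bright on all 3 arrays with a score above 1, at 13.21 in prednisolone mouse 2 and 13.57 and 13.21 in vehicle mice 1 and 4. The part of epididymal RNA in the values of Ptgds, Alox12 and Pla2g5 was not tested.

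**Figure D4:**
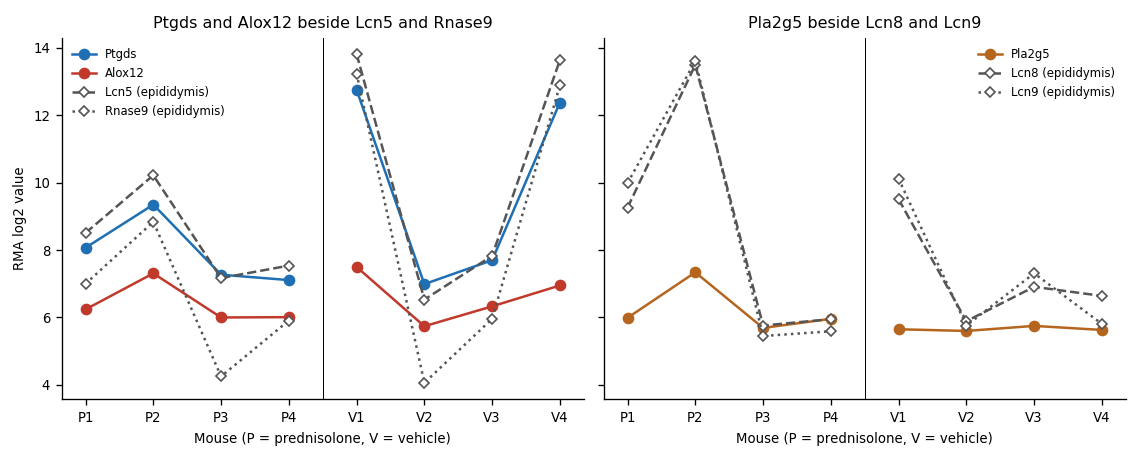
RMA log2 value (y axis) by mouse (x axis, 4 prednisolone mice left, 4 vehicle mice right) of Ptgds and Alox12 with the epididymal markers Lcn5 and Rnase9 (left panel) and of Pla2g5 with Lcn8 and Lcn9 (right panel). Ptgds is brightest in vehicle mice 1 and 4, at 12.76 and 12.38, and Pla2g5 in prednisolone mouse 2, at 7.34, each with the markers drawn beside it; lines join mice for legibility only.

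All 3 genes of the epoxygenase branch averaged higher with prednisolone, both over 8 mice and over the 5 with a score below 1. Among all tested genes 54.6% and 53.6% did so, and 3 genes are few. Of 5 other tested genes of this branch, 3 averaged higher and 2 lower over 8 mice. The sign of Cyp2j6 did not hold in all alternatives. Ephx2, soluble epoxide hydrolase, turns epoxides of arachidonic acid into diols and is abundant in adipocytes. It read 11.41, 10.59, 11.22 and 11.48 in prednisolone mice, against 10.30, 10.71, 11.06 and 11.12 in vehicle mice (0.38 ± 0.24, or 1.30-fold, adjusted p = 0.768). Prednisolone mice 1, 3 and 4 lay above every vehicle mouse, and prednisolone mouse 2 lay below all but vehicle mouse 1. Without prednisolone mouse 2 the difference was 0.57 ± 0.20 (limma unadjusted p = 0.0253, adjusted p = 0.629), and over the 5 mice it was 0.48 ± 0.15 (unadjusted p = 0.0179, adjusted p = 0.957). The cytochrome P450 genes Cyp2j6 and Cyp2j9 belong to a family of epoxygenases of like sequence, so their probe sets may share signal. Cyp2j6 ranged from 7.61 to 7.94 with prednisolone and from 7.51 to 7.85 with vehicle (0.06 ± 0.11). Cyp2j9 ranged from 7.49 to 7.81 with prednisolone and from 7.21 to 7.55 with vehicle (0.16 ± 0.11).

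The 7 receptors had differences between -0.02 and 0.25, and 6 of them averaged higher with prednisolone, against 54.6% of all tested genes. Over the 5 mice with a score below 1, 3 were higher and 4 lower (median -0.07), against 53.6% higher. Of 6 other tested receptors of the pathway, 1 averaged higher and 5 lower over 8 mice. Ptger3, the prostaglandin E receptor through which adipocytes limit lipolysis, read 10.48, 10.49, 10.65 and 10.44 in prednisolone mice, against 10.64, 11.01, 10.02 and 10.18 in vehicle mice (0.06 ± 0.20, adjusted p = 0.951). Its spread was 0.09 (SD) in prednisolone mice and 0.45 in vehicle mice, and the prednisolone values lay inside the vehicle range. Cysltr1, a receptor of cysteinyl leukotrienes on leukocytes, read 7.48, 6.69, 6.50 and 6.84 in prednisolone mice, against 6.13, 6.65, 7.40 and 6.34 in vehicle mice (0.25 ± 0.30), and was -0.08 ± 0.34 over the 5 mice with a score below 1. Ptgir, the prostacyclin receptor, ranged from 6.96 to 7.25 with prednisolone and from 6.66 to 7.23 with vehicle (0.22 ± 0.14), and its difference over those 5 mice was 0.02 ± 0.14. Ptgfr, the receptor of prostaglandin F2 alpha, which restrains adipocyte differentiation, ranged from 6.88 to 7.22 with prednisolone and from 6.67 to 7.12 with vehicle (0.19 ± 0.13). Both prostaglandin E receptors that raise cyclic AMP were close to equal, Ptger4 at 0.11 ± 0.21 and Ptger2 at -0.02 ± 0.12, as was the thromboxane receptor Tbxa2r at 0.02 ± 0.12.

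Several of the genes were high or low together in single mice. Vehicle mouse 1 had the lowest value of the 8 mice in 12 of the 28 genes, against 23.7% of all tested genes, and vehicle mouse 3 the highest in 8, against 13.6%. The genes highest in vehicle mouse 3 included Pla2g4a, Ptgs2, Ptgis, Hpgds, Alox5 and Alox5ap. A score over 17 macrophage markers had the same ends, at 0.37, -0.24, 0.28 and -0.09 in prednisolone mice, against -0.64, -0.02, 0.76 and -0.41 in vehicle mice. These ends were not particular to macrophage markers. The progenitor and fibroblast score was also lowest in vehicle mouse 1 (-0.31) and highest in vehicle mouse 3 (0.43). The same held for the eosinophil and neutrophil score (-0.12 and 0.16). Over 8 mice 13 of the macrophage markers averaged higher and 4 lower with prednisolone (median 0.24), against 54.6% of all tested genes higher. Over the 5 mice with a score below 1 the count was 1 higher and 16 lower (median -0.16), against 53.6% higher. The mesothelium score of vehicle mouse 3 was 1.06, against at most 0.26 in every other mouse, and its mast cell score was 0.55, against at most 0.25. Alox15 did not share this order and was lowest in vehicle mouse 3. That mouse had the highest reading of Gata6 (9.44) and Timd4 (8.04), both on the list of macrophage markers. Whether these readings come from resident macrophages was not tested. In tissue RNA, more cells of a type and more RNA of a gene per cell cannot be told apart, and the part of cell composition in these differences was not tested.

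**Figure D5:**
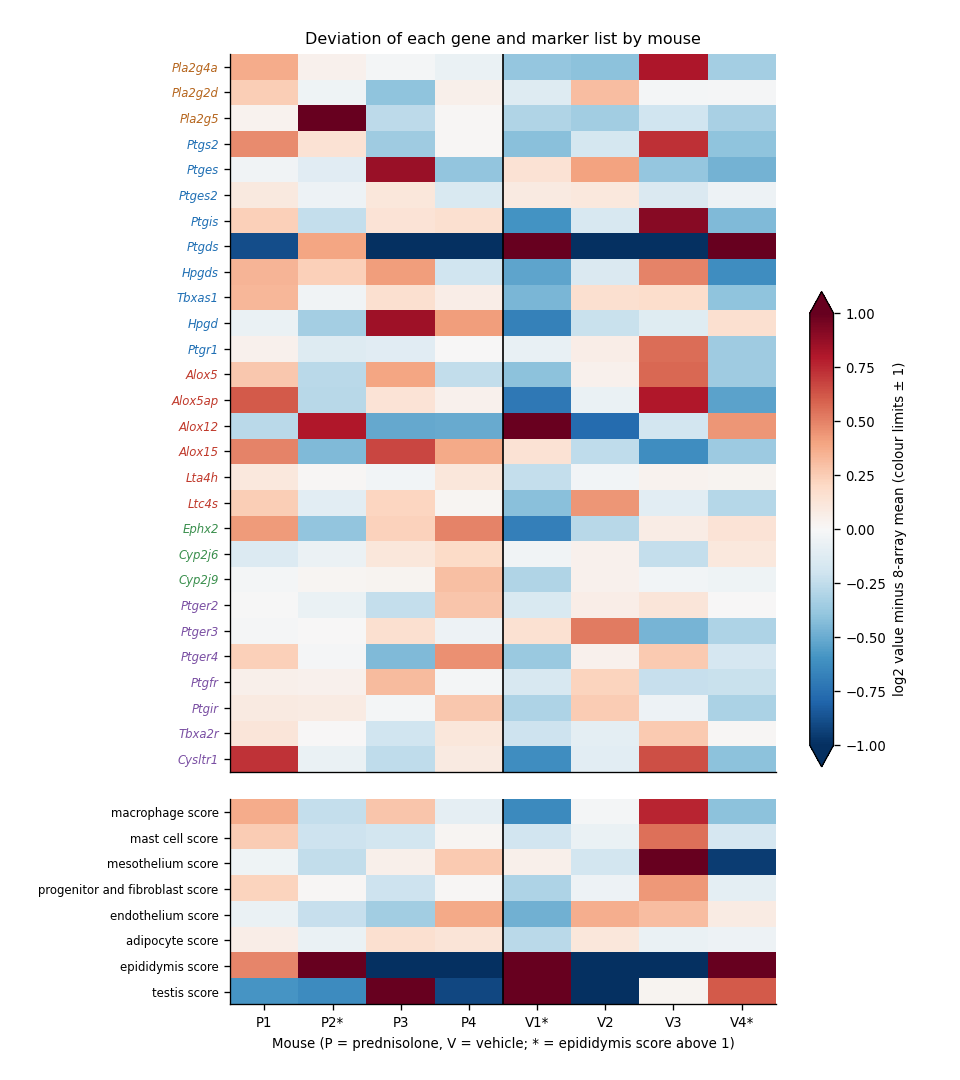
Deviation of each gene (upper block, names coloured by branch) and of each marker list score (lower block) from its mean over 8 arrays, log2, by mouse, with prednisolone mice P1 to P4 left and vehicle mice V1 to V4 right; colours saturate at ± 1. Column V3 is high for Pla2g4a, Ptgs2, Ptgis, Alox5 and Alox5ap. It is also high for the macrophage, mesothelium, mast cell, and progenitor and fibroblast scores. Column V1 is the lowest of the 8 for 12 genes.

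Which genes reached an unadjusted p under 0.05 depended on single mice, and none passed the adjusted threshold in any of these comparisons. Without prednisolone mouse 2 there were 3 upward (Alox15, Ephx2 and Hpgd), against 4.82% of tested genes, and 0 downward, against 2.61%, with 2 genes apart upward, against 5.36%, and 0 downward, against 3.43%. Without vehicle mouse 3 there were 4 upward (Pla2g4a, Hpgds, Ptgis and Alox5ap), against 4.78%, and 0 downward, against 3.79%, with 2 genes apart upward (Pla2g4a and Pla2g5), against 4.07%, and 0 downward, against 3.29%. The Hpgds difference was then 0.63 ± 0.18 and the Ptgis difference 0.47 ± 0.15. Without vehicle mouse 2 there were 3 upward (Ltc4s, Ptgfr and Ptgir), against 5.82%, and 1 downward (Ptgds), against 4.93%, with 4 genes apart upward, against 6.7%, and 0 downward, against 3.99%. With arrays weighted by their quality, 4 genes were upward (Alox15, Hpgds, Tbxas1 and Ptgir), against 7.18%, and 1 downward (Ptgds), against 6.21%. With the epididymis score as a covariate, a choice made after seeing the data, 1 was upward (Pla2g5, 0.64 ± 0.26), against 4.8%, and 1 downward (Ptgds, -1.71 ± 0.71), against 4.08%, while 0.00676% of tested genes passed the adjusted threshold. With that covariate Lcn5 still differed by -1.72 ± 0.87 and Lcn8 by 1.75 ± 0.84, so the score did not level single epididymis markers. Pla2g5, called with the covariate, was apart without vehicle mouse 3. Without prednisolone mouse 3 it was apart too (0.77 ± 0.33, limma unadjusted p = 0.0484, adjusted p = 0.942). Its vehicle mean was 5.66, under the filter cut of 5.82. Alox15 reached an unadjusted p under 0.05 without prednisolone mouse 2, with array weights, over the 5 mice and also without vehicle mouse 1 (0.69 ± 0.26), but not over all 8 mice.

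Further genes of the pathway were taken from a list of 76, of which 69 had a probe set of their own and 39 passed the filter on dim genes. Of the 39, 24 averaged higher and 15 lower with prednisolone (median 0.07), 0 passed the adjusted threshold, and 3 had an unadjusted p under 0.05, all upward. Among all tested genes 54.6% averaged higher, and 3.37% had an unadjusted p under 0.05 upward and 2.33% downward. Those 3 are the ones with the most positive statistics. The groups were apart upward in the same 3 genes, against 1.81% of all tested genes, and downward in 0, against 1.39%. Ephx1, microsomal epoxide hydrolase, read 9.73, 10.11, 10.29 and 10.23 in prednisolone mice, against 9.46, 9.70, 9.63 and 9.41 in vehicle mice (0.54 ± 0.13, limma unadjusted p = 0.00355, adjusted p = 0.768), with the groups apart. Akr1c18, an aldo-keto reductase of progesterone and prostaglandins, read 8.00, 6.62, 6.42 and 6.54 in prednisolone mice, against 5.87, 6.25, 5.83 and 6.14 in vehicle mice (0.88 ± 0.33, adjusted p = 0.768), and Daglb, a diacylglycerol lipase, differed by 0.43 ± 0.17. Over the 5 mice with a score below 1 none of the 3 had an unadjusted p under 0.05 in limma, with differences of 0.42 ± 0.19 for Ephx1, 0.95 ± 0.49 for Akr1c18 and 0.14 ± 0.10 for Daglb. Vehicle mice 1 and 4, both left out there, had the lowest Daglb values, at 8.49 and 8.29. The most negative statistics were those of the secreted phospholipase Pla2g2c (-0.20 ± 0.10), the receptor Cmklr1 (-0.27 ± 0.18) and the leukotriene B4 receptor Ltb4r1 (-0.13 ± 0.10). Plaat3, the main phospholipase of adipocytes, was singled out after its values were seen and differed by 0.13 ± 0.14, or 0.01 ± 0.15 over the 5 mice.

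Genes through which glucocorticoids are known to restrain arachidonic acid release did not pass the test either. Anxa1, annexin A1, read 12.36, 12.39, 12.88 and 12.61 in prednisolone mice, against 11.97, 12.42, 12.26 and 11.98 in vehicle mice (0.40 ± 0.15, limma unadjusted p = 0.0273, adjusted p = 0.768), and its difference over the 5 mice was 0.28 ± 0.17. S100a10 differed by 0.20 ± 0.18, the phosphatase Dusp1 by 0.21 ± 0.22 and Zfp36, which destabilises Ptgs2 messenger RNA among others, by 0.23 ± 0.18. Tsc22d3, which encodes GILZ, differed by -0.20 ± 0.18 in the other direction, or -0.41 ± 0.20 over the 5 mice.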

How the data were processed

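The deposited table holds log2 expression values for 41345 probe sets on 8 Affymetrix GeneChip Mouse Gene 2.0 ST arrays, which the authors derived by RMA with Expression Console software, per the labels. The submitters' processing notes also name Partek 6.6, with no role. Genome build and annotation version: not given in the sources used here. RMA equalises the arrays' distributions and compresses differences of dim genes.

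Probe sets with 1 gene symbol in GEO's platform annotation (23521) were used, the one with the highest mean over 8 arrays for each of 22180 genes. The dimmest 33.3% (mean under 5.82) were left out. Prednisolone and vehicle were compared in limma 3.58.1 under R 4.3.3 (lmFit, eBayes, no covariate or block) over 14787 genes with Benjamini-Hochberg adjustment at 0.05, and the fit was tested on simulated data. The simulated noise was drawn independently for each gene and array, so it does not cover differences that many genes share on 1 array. The labels call the replicates biological. The replicate numbers state no shared litter or day, so the mice were not paired. Deviations of same-numbered mice correlated at -0.19, -0.58, 0.13 and -0.28. These values cannot settle whether they share one, because the arrays also differ in epididymis transcripts. The number of arrays limits the precision. The median standard error was 0.12 over all tested genes, and those of the 28 genes lay between 0.08 and 1.36. The genes, lists and tests were chosen with earlier results of these data known. All 30 genes were to be named, plus the 3 highest and 3 lowest statistics among other pathway genes and all glucocorticoid brake genes on the array. Of 5 brake genes found, all are given. Marker lists for further cell types were scored as well. Promoter sequences are from RefSeq (GRCm38.p6).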

Additional observations from a re-analysis of the deposited data

Results flagged for a closer look

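Within groups of 4 mice, 5 of 78 groups checked had 1 mouse far from the other 3, where chance flags about 1 in 20 groups, or 3.9. Among the listed genes these were Pla2g4a in vehicle mouse 3 (8.56), Cyp2j9 in prednisolone mouse 4 (7.81) and Ptgfr in vehicle mouse 2 (7.12). Among the other pathway genes they were Akr1c18 in prednisolone mouse 1 (8.00) and Ltb4r1 in prednisolone mouse 3 (6.02). Each is the highest value of its group except that of Ltb4r1, which is the lowest.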

How the results depend on the processing

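In all 18 alternatives 0 of the 28 genes passed the adjusted threshold, and the lowest adjusted p of any of them was 0.355 (Alox15 with array weights). The median difference stayed between 0.02 and 0.23. The replicate block left it at 0.15 and changed no count. Adjusting for the epididymis score, added after seeing the data, gave 1 gene past the adjusted threshold among all tested (Peg10, an imprinted gene outside the list, named after its value was seen, 0.98 ± 0.08, limma adjusted p = 0.043). Unadjusted p-values under 0.05 were reached by 4 of the 28 genes upward and 1 downward with array weights (7.18% and 6.21% of all tested genes). With the epididymis score as a covariate the counts were 1 and 1 (4.8% and 4.08%). Over the 5 mice with an epididymis score below 1 they were 2 upward (2.04%) and 0 downward (1.32%). Leaving out 1 mouse gave 0 to 4 upward, 0 to 1 downward, and 0 to 4 genes with groups apart. The 4 upward came without vehicle mouse 3 (4.78% of all tested genes). The 1 downward and the 4 apart, all upward, came without vehicle mouse 2 (4.93% and 6.7%). Over the 5 mice 4 genes were apart, 3 upward and 1 downward (10.5% and 8.37%). In 10 of the 28 genes the sign held in all alternatives. Over 5 mice it turned for Pla2g4a (-0.11), Ptgs2 (-0.24), Ptgis (-0.19), Ptgds (0.14), Alox5 (-0.17), Alox5ap (-0.11), Alox12 (0.05), Ltc4s (-0.00), Ptger4 (-0.07), Tbxa2r (-0.07) and Cysltr1 (-0.08). With array weights it turned for Pla2g2d (0.02), Ptgr1 (0.08), Cyp2j6 (-0.02) and Ptger2 (0.01), and with centred arrays for Ptger2 (0.01). Leaving out 1 mouse, the differences that turned ran from -0.17 to 0.05 for Pla2g2d, 0.00 to 0.40 for Ptgs2, -0.10 to 0.32 for Ptges, -0.05 to 0.05 for Ptges2, -0.03 to 0.47 for Ptgis, -0.23 to 0.07 for Ptgr1, -0.05 to 0.28 for Alox5, -0.55 to 0.05 for Alox12, -0.01 to 0.11 for Cyp2j6, -0.11 to 0.06 for Ptger2, -0.09 to 0.24 for Ptger3, -0.02 to 0.28 for Ptger4 and -0.05 to 0.11 for Tbxa2r. The cause was not tested.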
